A study of Mus musculus with 6 samples.

Results

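The diacylglycerol kinase genes were examined in RNA-Seq libraries of mouse lenses at embryonic day E14.5. The family was chosen from the measured counts, because Dgkg had stood apart from its paralogs in the comparison described here. Its 9 listed members are Dgka, Dgkb, Dgkd, Dgke, Dgkg, Dgkh, Dgki, Dgkq and Dgkz, and 8 of them were among the 13024 genes of the count table. Dgki was not analysed here. Differences between the groups in these 8 genes are therefore descriptions, given with standard errors and without p-values.

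Diacylglycerol kinases phosphorylate diacylglycerol, the lipid that phospholipase C releases from membrane phosphoinositides, to phosphatidic acid. This ends the diacylglycerol signal to protein kinase C, the RasGRP exchange factors and the chimaerins, and it feeds the resynthesis of phosphoinositides. The mammalian enzymes share a catalytic domain and cysteine-rich C1 domains and fall into types by their other domains. Type I (Dgka, Dgkb and Dgkg) carries calcium-binding EF hands, type II (Dgkd and Dgkh) a pleckstrin homology domain, and type IV (Dgkz and Dgki) ankyrin repeats and a nuclear localization signal. Type III is Dgke, which prefers diacylglycerol with an arachidonoyl chain, and type V is Dgkq.

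Lenses were pooled before sequencing, 10 lenses of 5 embryos to a library, with 3 libraries in each group, on a mixed C57BL/6 and FVB background. The libraries labelled CKO came from Gata3 f/f embryos carrying Pax6-Cre, in which exon 4 of Gata3, a zinc finger transcription factor of the lens, is removed in the lens and corneal precursor ectoderm. The control libraries, labelled wild type, came from embryos without Cre, which the study's methods give as Gata3 f/f and its results as Gata3 f/wt. The Cre transgene was present only in the CKO group, so its effect and that of the deletion cannot be told apart, and scattered retinal cells also express it.

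Libraries held 15157230 to 18811104 counts. Gata3 itself was counted at 12.8, 27.2 and 8.71 CPM (counts scaled to a common library size after TMM normalization) in the control libraries and at 59.0, 54.1 and 46.5 CPM in the libraries labelled CKO. The gene carrying the deletion was thus counted higher in all 3 libraries labelled CKO, with a log2 fold change of 1.72 (SE 0.40). Counts summed over a whole gene cannot separate its exons and so do not check the deletion of exon 4, and the group is called by its label throughout. The study itself reports the loss of exon 4 from RNA-Seq of the mutant lenses. It also reports lower Gata3 by qPCR with primers that reach into that exon. Crystallin genes, the hallmark of the lens, held 6.63% to 16.5% of the counts in control and 5.47% to 7.27% in the libraries labelled CKO. Control replicate 2 had the highest crystallin share and stood apart from the other 5 libraries on the first principal component. All 14 lens fibre markers were measured, with summed levels of 30927 to 92107 CPM in control and 23388 to 33789 CPM in the libraries labelled CKO. The log2 fold change was below 0 for 14 of these 14 markers, with a median of -1.46, and 9 had an unadjusted p under 0.05 in edgeR and 8 had separate groups. Over all genes tested, 3.55% had such a p and 8.36% had such groups, in either direction. Among the markers, Dnase2b, the nuclease of fibre cell denucleation, had a log2 fold change of -4.64, Crygb, a crystallin, one of -2.67, and Bfsp2, a fibre cell intermediate filament protein, one of -1.55. The list is not independent of these samples, since the study had singled out Dnase2b, Crygb, Bfsp2, Lenep and Cryba4 in them. Some marker lists of other tissues varied widely between pools of 1 group. Mesenchyme markers summed to 308 to 2292 CPM in control and 349 to 3996 CPM in the libraries labelled CKO, pigment cell markers to 69.8 to 341 and 72.6 to 341 CPM, and retina and neuron markers to 1237 to 3368 and 2119 to 2934 CPM. Lens epithelium markers summed to 990 to 1301 CPM in control and 991 to 1029 CPM in the libraries labelled CKO. Their log2 fold change was below 0 for 4 of 4 tested. The same held for 4 of 4 blood, 6 of 6 macrophage and 5 of 6 vessel markers tested. Values above 0 came from 8 of 9 mesenchyme and 14 of 15 retina and neuron markers. They also came from 4 of 6 pigment cell and 4 of 7 surface ectoderm markers. Over all genes tested, 6515 had values above 0 and 6364 below. In each list outside the fibre list 0 markers had separate groups. Only C1qa, a macrophage marker, had an unadjusted p under 0.05 in edgeR. Mesenchyme sums were 349, 3996 and 577 CPM in CKO replicates 1, 2 and 3. Markers of a list can vary together, so these signs are not separate observations and no shift of a tissue is read from them. In these bulk samples, fewer cells of a type and less RNA per cell cannot be told apart.

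The promoter windows of a pair of type I genes are shown because the study removed a GATA factor and because these paralogs differed in their counts. RefSeq gives each as the 250 bases before and 50 bases after a transcription start (GRCm38.p6). The Dgkg window lies at chr16:22657182-22657481 on the minus strand, and the Dgkb window at chr12:37879924-37880223 on the plus strand. The annotated Dgkb gene starts at chr12:37817726, so this window lies inside it and not at its outermost start. Capitals mark matches to the motif AGATAA or the motif AGATAG, and to the variants TGATAA or else TGATAG, on either strand.
Dgkg: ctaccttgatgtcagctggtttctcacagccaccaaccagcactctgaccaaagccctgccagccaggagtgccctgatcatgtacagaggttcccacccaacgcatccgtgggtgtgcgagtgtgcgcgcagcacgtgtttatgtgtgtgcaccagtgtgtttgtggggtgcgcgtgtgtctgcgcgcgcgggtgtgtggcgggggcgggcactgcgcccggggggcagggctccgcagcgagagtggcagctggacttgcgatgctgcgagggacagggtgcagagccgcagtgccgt
Dgkb: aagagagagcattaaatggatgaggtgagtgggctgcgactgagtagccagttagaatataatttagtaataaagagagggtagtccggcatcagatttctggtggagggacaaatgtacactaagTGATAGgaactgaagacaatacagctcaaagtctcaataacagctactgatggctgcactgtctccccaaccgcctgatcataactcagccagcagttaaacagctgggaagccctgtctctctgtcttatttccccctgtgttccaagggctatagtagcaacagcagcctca
The Dgkg window held none of these letters, and the Dgkb window held 1 match, 124 bases before the start. The 8 members had 14 windows, of which 4 held a match, in Dgka, Dgkb, Dgke and Dgkh. Among all 32851 windows of this length, 29.8% held a match. GC content was 65.0% in the Dgkg window and 46.3% in the Dgkb window, against a median of 52.7% over all windows. A match is a description of the letters only, and its absence says no more than that these letters are not in this window.

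Dgkg, whose gene spans chr16:22468461-22657221 on the minus strand of GRCm38, was the member that differed most between the groups. It was counted at 15.65, 30.1 and 12.5 CPM in the control libraries (247, 427 and 224 fragments) and at 67.5, 53.0 and 40.8 CPM in the libraries labelled CKO (1041, 1043 and 784 fragments). Every library labelled CKO lay above every control library, and control replicate 2 was the highest of its group. The means were 19.4 ± 9.38 and 53.8 ± 13.4 CPM (SD, n = 3 each), a log2 fold change of 1.47 (SE 0.354), or 2.78-fold. Without control replicate 2 the log2 fold change was 1.94, and with any 1 library left out it lay between 1.23 and 1.94. It ranked 14 of the 12879 genes tested by log2 fold change. Its exons share 46 bases with an antisense gene, Gm15651. The study lists Dgkg among genes with lower expression in each of the lens mutants of Gata3, N-Myc and Prox1, the direction opposite to these counts. The reason for this was not tested.

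The other type I genes had nearly level means. Dgka, on chromosome 10, gave 11.3, 10.3 and 8.38 CPM in control and 9.14, 12.9 and 8.95 CPM in the libraries labelled CKO, with a log2 fold change of 0.05 (SE 0.209). The ranges overlapped, and the single highest value was in CKO replicate 2. Dgkb, on chromosome 12, gave 21.5, 24.4 and 15.97 CPM in control and 24.1, 19.3 and 17.3 CPM in the libraries labelled CKO, with a log2 fold change of -0.03 (SE 0.195). Both groups held high and low pools of Dgkb, and the ranges overlapped almost entirely. Both log2 fold changes were smaller than their standard errors. In the annotation, 105 exon bases of Dgka overlap Pmel, a melanosome gene on the opposite strand, which varied from 27.9 to 169 CPM in control and from 34.8 to 166 CPM in the libraries labelled CKO. Its 2 highest libraries, control replicate 1 and CKO replicate 2, were also the highest for Dgka in their groups. The strand setting of the counting is not given in the sources used here, so fragments of the 2 genes may not be fully separated.

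**Figure D1:**
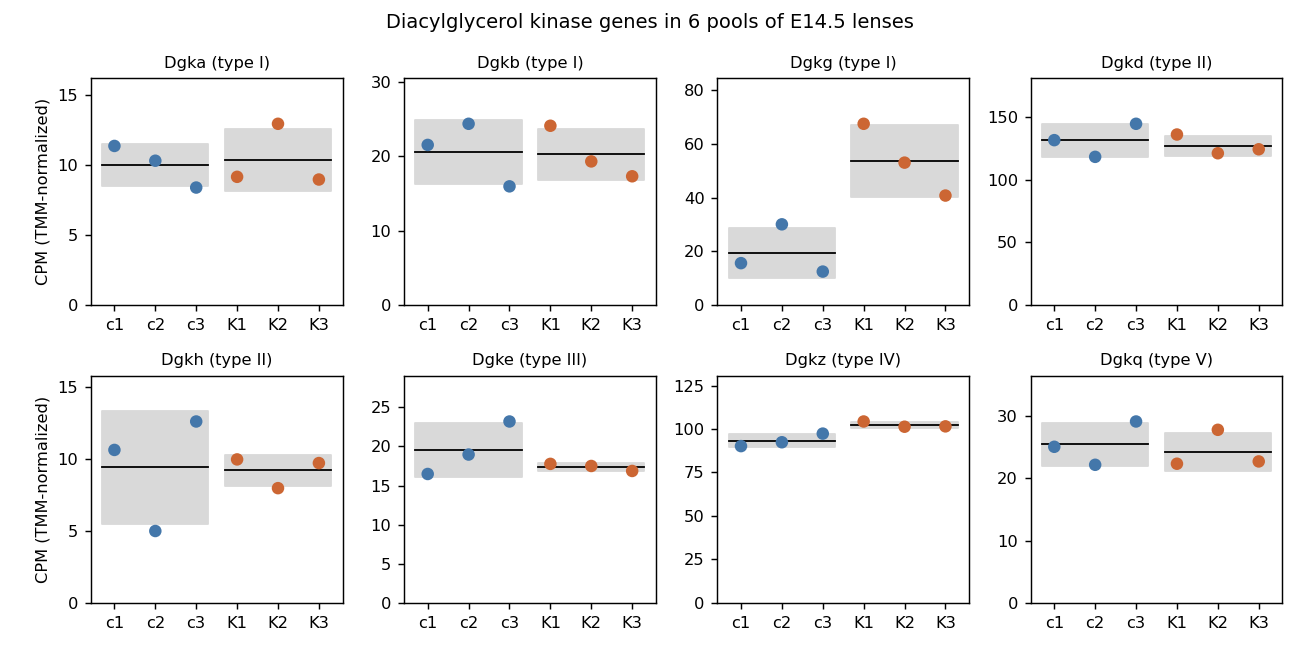
Levels of the 8 measured diacylglycerol kinase genes in each library, in TMM-normalized CPM (each panel has its own axis from 0; c1 to c3 are control pools, K1 to K3 pools labelled CKO). Points are libraries, lines the group means and grey bands 1 SD; Dgkg lay at 12.5 to 30.1 CPM in control and at 40.8 to 67.5 CPM in the libraries labelled CKO, while of the other 7 genes only the Dgkz ranges were separate.

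Among the type II genes, Dgkd was abundant and Dgkh scarce. Dgkd, on chromosome 1, gave 131, 118 and 144.5 CPM in control and 136, 121 and 124 CPM in the libraries labelled CKO, giving a log2 fold change of -0.05 (SE 0.0940). All 3 libraries labelled CKO fell inside the control range. Dgkh, on chromosome 14, gave 10.6, 5.00 and 12.6 CPM in control and 9.98, 7.98 and 9.73 CPM in the libraries labelled CKO, giving a log2 fold change of -0.03 (SE 0.332). Its low value came from control replicate 2, with 71 fragments, the library with the most crystallin counts. Without that library the log2 fold change of Dgkh was -0.32.

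Dgke, the type III gene on chromosome 11, gave 16.5, 18.96 and 23.2 CPM in control and 17.8, 17.5 and 16.9 CPM in the libraries labelled CKO. The pools labelled CKO lay close together inside the wider control range, and the log2 fold change was -0.17 (SE 0.145). Dgkq, the type V gene on chromosome 5, gave 25.1, 22.2 and 29.2 CPM in control and 22.4, 27.8 and 22.7 CPM in the libraries labelled CKO. Its ranges also overlapped, with a log2 fold change of -0.07 (SE 0.142). The exons of Dgkq share 2090 bases with Tmem175 on the opposite strand and 56 bases with Idua, so its level is uncertain for the reason given for Dgka.

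Dgkz, the measured type IV gene, on chromosome 2, was the other member whose groups did not overlap, at a far smaller difference than Dgkg. It gave 90.2, 92.4 and 97.4 CPM in control and 104, 101 and 102 CPM in the libraries labelled CKO. The 6 libraries were close together, and each value of a library labelled CKO was above each control value. The means were 93.3 ± 3.68 and 102 ± 1.68 CPM (SD, n = 3 each), a log2 fold change of 0.13 (SE 0.0649). The separation of the Dgkz groups also held when libraries were scaled by their totals, with or without crystallins, or by the median of ratios. As a share of all family fragments Dgkz overlapped, at 28.0%, 28.7% and 28.3% in control and 26.7%, 28.1% and 29.7% in the libraries labelled CKO.

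Of the 8 members, 2 (Dgkg and Dgkz) had groups that did not overlap, in a table where 8.36% of the genes tested had such groups in either direction. At an adjusted p under 0.05 in edgeR's quasi-likelihood test 0 members were called, with a background of 0% over all genes. At an unadjusted p under 0.05 in edgeR the count was 1 member (Dgkg), with a background of 3.55%, and DESeq2 at an adjusted p under 0.05 called 1 member (Dgkg), with a background of 0.66%. Because this contrast led to the choice of the family, nothing is read from these counts. The median log2 fold change of the 8 members was -0.03, and that of all genes tested was 0.0019.

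**Figure D2:**
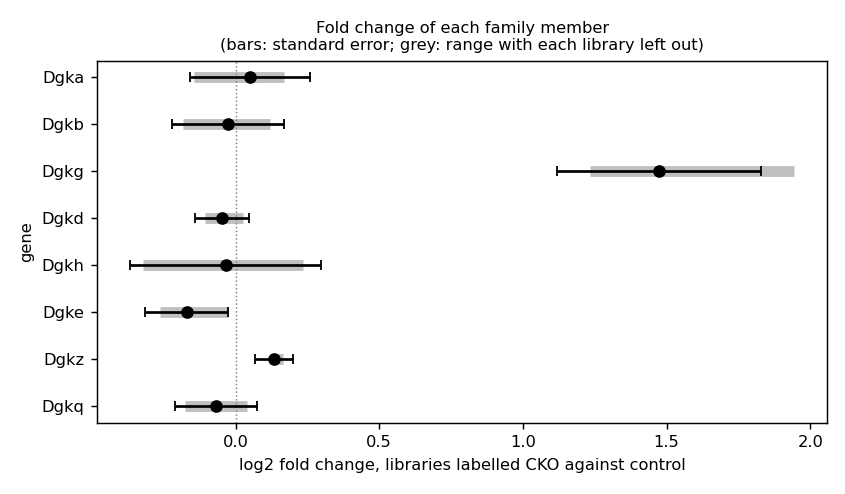
Log2 fold change of each member, libraries labelled CKO against control (points), with its standard error (bars) and the range of values when each library was left out in turn (grey). Dgkg lay at 1.47, with a range of 1.23 to 1.94, and the other 7 genes lay between -0.17 and 0.13.

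Pools of 1 group differed in Dgkg by far more than counting error. Its coefficient of variation between pools was 48.3% in control and 24.9% in the libraries labelled CKO, where the number of fragments alone gives 5.78% and 3.23%. Dgkh had the next highest coefficient in control, 42.0%, beside a counting error of 8.03%. Dgkz varied least, by 3.95% and 1.64%, close to its counting errors of 2.59% and 2.32%. Dgke had a coefficient of 17.4% in control but 2.68% in the libraries labelled CKO, below its counting error of 5.64%.

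Across the libraries of each group, Dgkg and the crystallin genes had the same order. In control the crystallin share was 9.31%, 16.5% and 6.63% of the counts in replicates 1, 2 and 3, and Dgkg was likewise highest in replicate 2 and lowest in replicate 3. In the libraries labelled CKO the crystallin share was 7.27%, 5.96% and 5.47%, and Dgkg followed the same order. Between the groups the directions were opposite, since the crystallin share was lower on average in the libraries labelled CKO and Dgkg higher.

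Dgkg was therefore also expressed per 1000 fragments of the 16 crystallin genes, a scale chosen after these values were seen. It came to 0.168, 0.159 and 0.195 in control and to 0.945, 0.930 and 0.783 in the libraries labelled CKO. The pools of each group now lay close together, with coefficients of variation of 10.8% and 10.1%, and the groups were 5.10-fold apart. Over the 14 lens fibre markers, 6 of which are crystallins, the ratio was 5.27-fold, with coefficients of 10.98% and 7.17%. The denominator was lower in the libraries labelled CKO, and the other 7 members, whose CPM means were nearly level, were 1.57-fold to 1.92-fold higher there on the crystallin scale. Those 7 genes varied on it by 32.0% to 75.7% between control pools, wider than Dgkg, but by 0.986% (Dgkb) to 28.1% (Dgka) between the pools labelled CKO. Dgkb was tighter than Dgkg there, and its groups did not overlap on this scale. Gata3 on this scale gave 0.137, 0.144 and 0.136 in control and 0.826, 0.949 and 0.893 in the libraries labelled CKO, with coefficients of 3.01% and 6.91%. With 3 pools in each group these orders are descriptions, and the part of fibre content in the level of Dgkg was not tested.

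**Figure D3:**
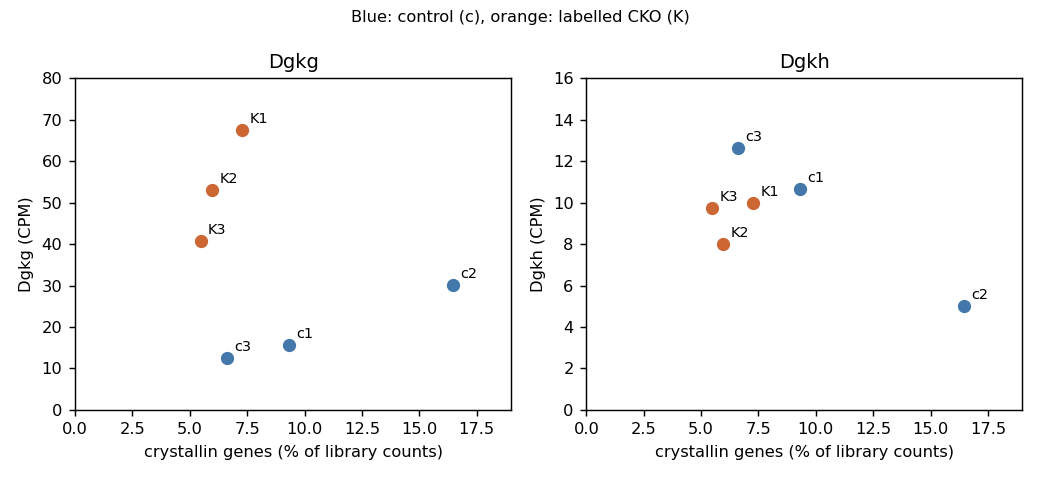
Level of Dgkg (left) and Dgkh (right) in CPM against the share of library counts held by 16 crystallin genes, one point per library (blue c1 to c3, control; orange K1 to K3, labelled CKO). Within each group Dgkg was higher where the crystallin share was higher, while Dgkh was lowest, at 5.00 CPM, in the control library with the highest share, 16.5%.

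Per kilobase of exon, which allows levels of different genes to be compared, Dgkd and Dgkz led the family in both groups. In control the levels in RPKM (CPM divided by exon length in kilobases) were 23.1 ± 2.31 for Dgkd and 20.5 ± 0.811 for Dgkz, ahead of 5.46 ± 2.64 for Dgkg and 5.16 ± 0.708 for Dgkq (SD, n = 3 each). Dgke (3.75 RPKM), Dgka (3.53 RPKM), Dgkb (3.24 RPKM) and Dgkh (1.89 RPKM) followed. Between neighbours in this order, Dgkz was separate from Dgkg, and Dgkq from Dgke, whereas the pools of the remaining neighbours overlapped.

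In the libraries labelled CKO, Dgkz (22.5 RPKM) and Dgkd (22.3 RPKM) again overlapped at the top. Dgkg, at 15.1 ± 3.76 RPKM, was separate from Dgkd above it and from Dgkq (4.92 RPKM) below it. Dgka, Dgke and Dgkb followed at 3.65, 3.34 and 3.18 RPKM, and Dgkh, separate from Dgkb, was last at 1.85 RPKM. These lengths cover the exons of the transcripts matched to RefSeq. With the exons of all annotated transcripts, Dgkg ranked 6 of 8 in control and 3 of 8 in the libraries labelled CKO, so its place in control depends on the gene model.

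The summed level of the 7 paralogs was the same in both groups to within the spread of the pools. It was 309.75 ± 20.1 CPM in control and 311 ± 11.5 CPM in the libraries labelled CKO, a ratio of 1.004. With Dgkg included, the family summed to 329 ± 12.6 and 365 ± 24.7 CPM, a ratio of 1.11. Dgkg held 4.85%, 9.36% and 3.64% of the family's fragments in the control libraries and 17.3%, 14.7% and 11.9% in the libraries labelled CKO. The groups did not overlap, and the mean share differed by 8.67 percentage points. Dgkd, the largest contributor, held 40.8%, 36.8% and 42.0% in control and 34.8%, 33.5% and 36.3% in the libraries labelled CKO, a separation that its CPM did not have. Dgke was likewise separate only as a share, at 5.11%, 5.90% and 6.74% in control and 4.54%, 4.85% and 4.93% in the libraries labelled CKO. Shares of a common total are tied, so a larger Dgkg share lowers those of the other genes.

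**Figure D4:**
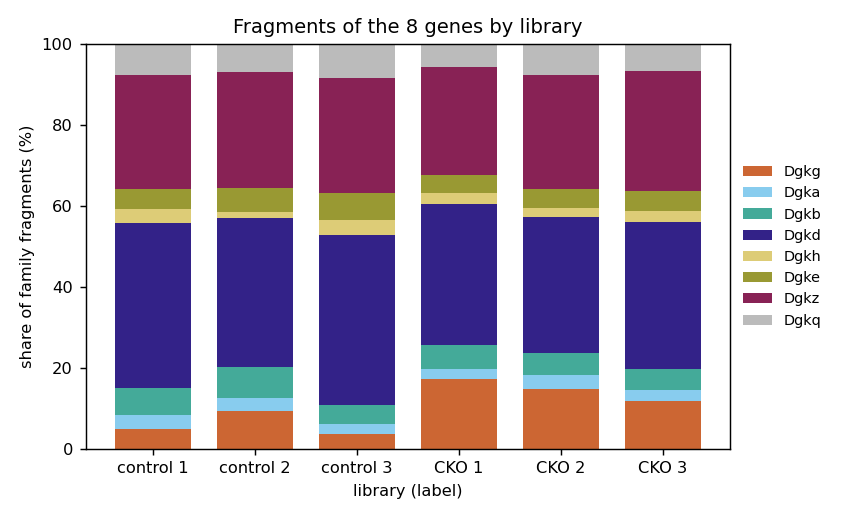
Share of the fragments of the 8 genes held by each gene, in percent, with 1 bar for each library. The Dgkg segment at the base covers 3.64% to 9.36% of the control bars and 11.9% to 17.3% of the bars labelled CKO, and Dgkd and Dgkz form the bulk of every bar.

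Ratios within a library do not depend on scaling between libraries. The ratio of Dgkg fragments to those of Dgkb, a paralog of the same type, was 0.726, 1.23 and 0.783 in control and 2.80, 2.74 and 2.35 in the libraries labelled CKO. Dgkb thus had more fragments than Dgkg in 2 of 3 control libraries and in 0 of 3 libraries labelled CKO. The mean log2 ratio of Dgkg to a paralog was higher in the libraries labelled CKO by 1.41 (to Dgkz) to 1.70 (to Dgke). All 7 sets of ratios share Dgkg as numerator, so they repeat its 1 difference and are not separate observations. For 6 of the 7 paralogs every ratio in the libraries labelled CKO exceeded every control ratio. The exception was Dgkh, for which control replicate 2 reached 6.01, against 6.76, 6.64 and 4.19 in the libraries labelled CKO.

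The genes nearest to Dgkg on chromosome 16 in the count table had far smaller differences. Etv5, a transcription factor of the ETS family whose gene ends 28.7 kb away, had a log2 fold change of 0.01 (SE 0.106). Tra2b and Igf2bp2 on the same side had values of 0.13 and -0.08. On the other side Crygs, a crystallin, had a value of -0.21 (SE 0.456), and Tbccd1 and Dnajb11 had values of -0.04 and -0.07. All 6 neighbours had overlapping groups.

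The genes whose levels followed Dgkg most closely over the 6 libraries were ranked by the root mean square difference of centred log2 CPM among 12792 genes, whose median difference was 0.904. Cckbr, the cholecystokinin B receptor, was nearest at 0.108, though it had only 11 to 59 fragments in a library. Dcdc2a (0.167), Tacr1, the receptor of substance P (0.177), the transporter gene Abcb1b (0.203), Gata3 (0.225) and Fam189a1 (0.228) followed. Centring was over both groups, so the group difference that led to the choice of Dgkg enters this measure. Log2 fold changes of these genes ran from 0.9975 (Fam189a1) to 1.78 (Dcdc2a). Their nearness therefore reflects in part a similar group difference, and is not separate support for a link to Dgkg. Tacr1 gave 29.1, 47.9 and 17.4 CPM in control and 87.3, 72.5 and 66.1 CPM in the libraries labelled CKO, with control replicate 2 again the highest of its group. The 7 paralogs lay between 0.819 for Dgkb (rank 1291) and 1.10 for Dgkh (rank 12029), and Dgkb, Dgkz (0.830) and Dgka (0.866) were below the median difference. A gene with level values still differs from Dgkg by the swing of Dgkg itself. A place below or above the median is therefore not read as likeness.

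The other genes of the pathway were counted against the background of all genes tested. Of 91 listed genes, 75 were tested, and edgeR called 0 of them at an adjusted p under 0.05, while 2 were higher and 3 lower at an unadjusted p under 0.05 and DESeq2 called 1. Their median log2 fold change was 0.01. Over all 12879 genes, 168 were higher and 289 lower at an unadjusted p under 0.05 in edgeR, which is 3.55% in either direction. DESeq2 called 0.66% of all genes. Groups were separate for 3 pathway genes higher and 5 lower in the libraries labelled CKO, where 8.36% of all genes had such groups. These counts are small, and nothing is read from them about the pathway.

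Among enzymes that make diacylglycerol, 0 of 8 phospholipase C genes passed an unadjusted p under 0.05 in edgeR or an adjusted p in either tool. Plcg1, the most abundant by CPM, had a log2 fold change of -0.10 (SE 0.0926). Plcb1, with the largest value of that list, gave 20.8, 31.1 and 14.97 CPM in control and 40.003, 33.2 and 27.7 CPM in the libraries labelled CKO. Its groups overlapped through control replicate 2. Plcb1 was named after its value was seen.

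Among 16 diacylglycerol effectors, 3 passed an unadjusted p under 0.05 in edgeR, against 3.55% of all genes tested, and 0 passed an adjusted one in either tool. Prkcq, a protein kinase C of the calcium-independent class, gave 8.87, 7.40 and 7.37 CPM in control and 4.99, 5.90 and 4.89 CPM in the libraries labelled CKO, giving a log2 fold change of -0.58 (SE 0.181). Prkd2, a protein kinase D, had a log2 fold change of 0.39 (SE 0.132), and Chn2, a chimaerin, one of 0.37 (SE 0.135). The groups of all 3 genes were separate, as were those of 8.36% of all genes tested. Unc13b, a Munc13 protein of vesicle priming and the most abundant effector by CPM, had a log2 fold change of -0.05 (SE 0.115).

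Trpc6, a cation channel opened by diacylglycerol, had the largest difference of the pathway. It gave 31.7, 56.6 and 22.5 CPM in control and 10.6, 7.37 and 7.18 CPM in the libraries labelled CKO. The groups were separate in the direction opposite to Dgkg, and control replicate 2 was again the highest. The means were 36.9 ± 17.6 and 8.40 ± 1.94 CPM, and the log2 fold change was -2.14 (SE 0.367). Its adjusted p was 0.473 in edgeR, and it was the pathway gene that DESeq2 called. Its inclusion is not independent of these samples, since the study had singled the gene out in them. Trpc2, a related channel, was at 0 fragments in all 6 libraries, a value that 42 genes of the count table had. That table kept genes by their mean FPKM, so a count of 0 in it does not show that a transcript is absent.

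Of the enzymes that act on phosphatidic acid in reverse, Lpin1, a lipin phosphatase, was 1 of 6 genes with an unadjusted p under 0.05 in edgeR, at a log2 fold change of -0.43 (SE 0.173) with overlapping groups. Lpin2, the most abundant of these by CPM, had a value of -0.09 (SE 0.0662). Dgat1, which turns diacylglycerol into triacylglycerol, had a value of 0.18 (SE 0.0898). The groups of Lpin2 and of Dgat1 were separate, as were those of 8.36% of all genes tested. Of the 17 genes of phosphatidic acid and phosphoinositide resynthesis and the 17 of Rac1 and the WAVE complex, 0 passed the unadjusted threshold in edgeR or an adjusted one in either tool. Pitpnm1, a phosphatidylinositol transfer protein, and Rac1, a small GTPase of the actin cytoskeleton, had log2 fold changes of 0.13 (SE 0.259) and -0.01 (SE 0.119). The related lipid kinases Agk, Cerk, Sphk1 and Sphk2 had values of 0.01, -0.23, 0.09 and 0.05, each with overlapping groups.

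**Figure D5:**
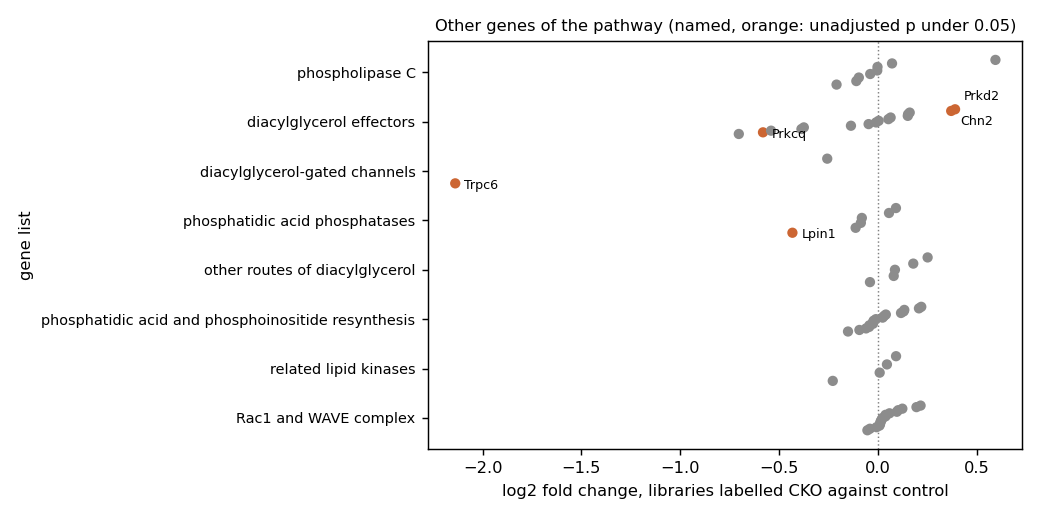
Log2 fold change of each tested gene of the 8 pathway lists, libraries labelled CKO against control, with 1 point per gene. Named orange points had an unadjusted p under 0.05 in edgeR; Trpc6 stands apart at -2.14, and the other points lie between -0.70 and 0.59.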

How the data were processed

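Lens mRNA of 3 control pools and 3 pools labelled CKO was sequenced as paired-end, stranded, poly(A)-selected libraries. The authors trimmed reads with Trim Galore, aligned them to mm10 with TopHat2 (2.0.13), counted fragments per RefSeq gene with HTSeq (0.6.1), and deposited raw counts, keeping the genes whose mean FPKM exceeded 1 in at least 1 group. The strand option of the counting is not given in the sources used here. CKO replicates follow the sample titles (1 to 3), which their descriptions number 2 to 4.

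Counts were normalized by TMM and fitted in edgeR 4.0.16 (R 4.3.3) by robust quasi-likelihood over the 12879 genes that reached 10 counts in 3 or more libraries, with Benjamini-Hochberg adjustment at 0.05. Log2 CPM used a prior count of 1. Depth was 15157230 to 18811104 counts, so for most members the spread between pools exceeded counting error. Positions and exon lengths came from GENCODE M21 (GRCm38), and promoters from RefSeq (GRCm38.p6), where all 8 members matched. Summaries used pandas 2.3.3 and figures matplotlib 3.10.9 under Python 3.11.15.

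The members and gene lists were chosen with earlier results of these data known. Besides the members, the genes named are the related lipid kinases and diacylglycerol-gated channels (1 gene of these lists is not reported here), and from the other lists the genes with an unadjusted p under 0.05 and the most abundant gene. The 3 nearest genes in the table on each side of Dgkg and the 6 genes most like it were also named. Alternatives were DESeq2 1.42.0, other normalization factors, crystallins left out of library sizes, other count filters, a replicate block, and each library left out in turn. No separate batches are given in the labels.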

Additional observations from a re-analysis of the deposited data

How the results depend on the processing

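Dgkg stayed higher in the libraries labelled CKO under every alternative run. Its log2 fold change, 1.47, was 1.47 to 1.54 under DESeq2, other size factors, other count filters and the replicate block, and 1.23 to 1.94 with each library left out, the highest without control replicate 2. Per crystallin fragment and per lens fibre marker fragment, scales added after seeing the data, it was 2.35 and 2.40. The other 7 members gave 91 values between -0.32 and 0.23. None moved by 1 SD between pools and 13 had the other sign, from Dgkb (5), Dgkh (4), Dgka (2), Dgkd (1) and Dgkq (1). Over all genes, 0 were called by edgeR, 85 by DESeq2 and 1 with crystallins left out of the library sizes, and 0 to 1 with each library left out. The 457 genes at an unadjusted p under 0.05 became 271 to 1234, with 806 without control replicate 2 and 1234 without control replicate 3. Of the pathway genes DESeq2 called 1, and the 5 at an unadjusted p under 0.05 became 1 to 11, the highest without control replicate 3 and the lowest without control replicate 1. The cause was not tested. The labels do not say whether the replicate numbers pair the pools. Residuals of libraries with the same number in their titles correlated at -0.49, 0.09 and 0.44. Pairs with different numbers ran from -0.48 (control replicate 3 with CKO replicate 2) to 0.56 (control replicate 1 with CKO replicate 2). With 3 pools in each group these values cannot decide whether the numbers pair the pools. With the replicate block the Dgkg value was 1.54.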
